A study of Mus musculus with 6 samples.

Results

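The interferon-inducible GTPases are large GTP-binding proteins of the cell-autonomous immune response. The 9 genes described here, Igtp, Irgm1, Irgm2, Iigp1, Tgtp1, Ifi47, Gbp2, Gbp3 and Gbp7, were chosen as a named list of immunity-related GTPases (IRGs) and guanylate-binding proteins (GBPs), and all of them were among the 24062 genes of the count table and among the 16904 genes tested. The RNA-seq data came from mice of the strain C57BL/6 (C57BL/6N in the study's methods) at P21 and hold 1 library for each retina sample, 3 of the genotype Rb1/p107 (DKO) and 3 of the genotype Rb1/p107/Hells (TKO). Both groups carried Chx10-Cre, floxed Rb1 and a germline deletion of p107 (Rbl1), and the TKO retinae also carried floxed Hells, in which exon 12 is targeted. Hells encodes a chromatin remodeler of the SNF2 family. Chx10-Cre is active in a mosaic pattern in retinal progenitor cells, so each retina also held cells that did not recombine, and microglia and vessels do not come from these progenitors. No retina without the Rb1 and p107 deletions was analysed here, so each value below compares TKO with DKO.

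IRGs and GBPs are kept low in resting cells and are induced by interferon-gamma, and to a lesser degree by type I interferon. Their promoters hold gamma-activated sites (GAS) and interferon-stimulated response elements (ISRE), and IRF1 is among the factors that bind the latter. Effector IRGs and GBPs coat vacuoles that hold parasites or bacteria and help to break them open, while the regulatory IRGs sit on the membranes of the cell itself and keep the effectors from loading there. In the nervous system they are markers of an interferon response, which microglia, astrocytes, endothelial cells and neurons can all mount.

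All 9 genes were lower in TKO than in DKO retinae, as given below, and their promoters were read for description. The sequences came from RefSeq windows of GRCm38.p6 that run from 250 bases before to 50 bases after the annotated start. Such a window was found for 8 of the 9 genes, and Iigp1 had no entry. The letters GAAANNGAA, the core of an ISRE, and TTCNNNGAA, the core of a GAS, were searched on both strands. The ISRE core was present in 7 of the 8 genes, with Ifi47 as the exception, and in 9.76% of all 27025 genes with a window. The GAS letters were present in 4 of the 8, Igtp, Irgm2, Tgtp1 and Gbp7, and in 9.55% of all genes. Both occurred in 1 window in the same 4 genes and in 1.24% of all genes. A match of letters is not evidence of binding. Since promoters of these families are known to hold such motifs, matches were likely from the choice of the genes alone.

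In Igtp, Irgm2 and Tgtp1, and in Tgtp2, a near copy of Tgtp1, the GAS letters ended 2 bases before the ISRE core. These stretches are shown because the 4 genes share the spacing. The predicted IRG gene Gm12185 has the same spacing, but it had at most 3 counts in a library and was not tested. The bases between the motifs were the same within each duplicated pair, Igtp with Irgm2 and Tgtp1 with Tgtp2. The sequences are from GRCm38, written 5′ to 3′ on the strand of the gene, with both motifs in capitals.
Igtp, chr11:58199496-58199545, plus strand: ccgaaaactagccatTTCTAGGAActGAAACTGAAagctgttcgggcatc
Irgm2, chr11:58214887-58214936, plus strand: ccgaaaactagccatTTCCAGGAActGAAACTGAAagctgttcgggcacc
Tgtp1, chr11:48992300-48992349, minus strand: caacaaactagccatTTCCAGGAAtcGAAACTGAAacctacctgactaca
Tgtp2, chr11:49064259-49064308, minus strand: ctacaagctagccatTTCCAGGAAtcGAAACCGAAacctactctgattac
The ISRE core lay at positions -34 to -26 from the annotated start in Igtp, -64 to -56 in Irgm2 and -77 to -69 in Tgtp1. This arrangement was looked for after the sequences had been seen, and it occurred in 8 of the 27025 genes (0.0296%). Beside the 4 shown, these were Gm12185, the olfactory receptor gene Olfr382, LOC115488470 and Adar, which encodes an interferon-inducible RNA-editing enzyme. The 4 genes shown are also related by duplication: over the aligned part of the 300-base windows, Igtp and Irgm2 were identical at 92.1% of bases, Tgtp1 and Tgtp2 at 80.5% and Igtp and Tgtp1 at 65.2%.

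The other genes with a match are shown to contrast the GBP promoters, in which the ISRE core was read on the opposite strand, with that of Irgm1. The ISRE cores of Irgm1 and of Gbp3 overlap each other, and in Gbp7 the capitals mark 2 GAS matches followed by 1 ISRE core.
Irgm1, chr11:48871421-48871465, minus strand: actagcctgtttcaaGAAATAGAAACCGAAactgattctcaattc
Gbp2, chr3:142620590-142620628, plus strand: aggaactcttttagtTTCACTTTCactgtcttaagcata
Gbp3, chr3:142559985-142560029, plus strand: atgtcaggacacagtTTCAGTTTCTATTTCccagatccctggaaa
Gbp7, chr3:142530215-142530307, plus strand: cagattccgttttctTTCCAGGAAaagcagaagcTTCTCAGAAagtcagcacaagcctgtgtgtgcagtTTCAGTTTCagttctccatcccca
All of these matches lay upstream of the start, within 106 bases of it, as the map of motif positions shows. A longer form of the ISRE core, which goes on with AC, was present in 5 of the 8 genes (Irgm1, Tgtp1, Gbp2, Gbp3 and Gbp7) and in 0.944% of all genes. Gbp3 has a second annotated start, and its window held neither motif.

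**Figure D1:**
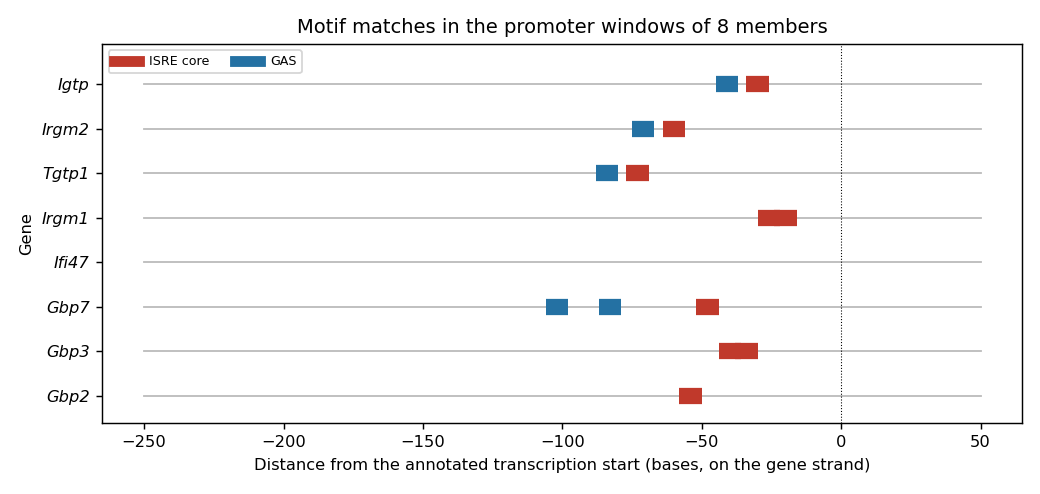
Positions of ISRE core (red) and GAS (blue) letter matches in the promoter windows of 8 genes, with distance from the annotated start in bases on the x axis. The GAS and ISRE core lie side by side in Igtp, Irgm2 and Tgtp1, and Ifi47 has no match; for Gbp3 the window of 1 of its 2 starts holds the matches.

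The libraries held between 10343907 and 14203098 counts on genes. Hells was checked first, with 60.8, 68.4 and 83.4 normalized counts in TKO retinae 1, 2 and 3 and 678, 523 and 395 in DKO retinae 1, 2 and 3, so every TKO library lay below every DKO library. These are counts over the whole gene, so they do not read the deletion of exon 12 itself, and dividing cell markers were lower in the same TKO libraries, as given below. Rb1, floxed in both groups, also passed an adjusted p of 0.05 between TKO and DKO retinae. It lost this in 5 of the fits that left out 1 library, all but that without TKO replicate 3 (adjusted p of 0.0747 to 0.129, edgeR). Equal Rb1 RNA in the 2 groups is therefore not shown, and the reason was not tested. Normalized counts here are counts divided by the library size scaled by edgeR's TMM method. A gene was called when it met 3 criteria of the study: an adjusted p up to 0.05, here from edgeR's quasi-likelihood test with Benjamini-Hochberg adjustment, a log2 fold change of 1 or more in either direction, and a mean of 10 or more normalized counts. The labels do not say whether samples of a genotype came from separate animals or litters, and the p-values measure only the spread between these samples.

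All 9 GTPase genes were lower in TKO than in DKO retinae, and in each of the 9 every TKO library lay below every DKO library. Such a separation was found in 20.6% of all genes tested. All 9 passed an adjusted p of 0.05 in the lower direction, against 9.2% of all genes, and 8 of the 9 were called lower, against 4.38%. The exception was Tgtp1, which averaged only 7.22 normalized counts. The median log2 fold change of the 9 genes was -1.67, with a range from -2.79 (Ifi47) to -1.29 (Gbp7), and the median stayed at -1.67 with Tgtp1 set to the bound given below. Over all 16904 genes the median was -0.011. Summed over the 9 genes, TKO retinae 1, 2 and 3 held 730, 665 and 739 normalized counts and DKO retinae 1, 2 and 3 held 2102, 1917 and 2285, a ratio of the group means of 2.95.

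**Figure D2:**
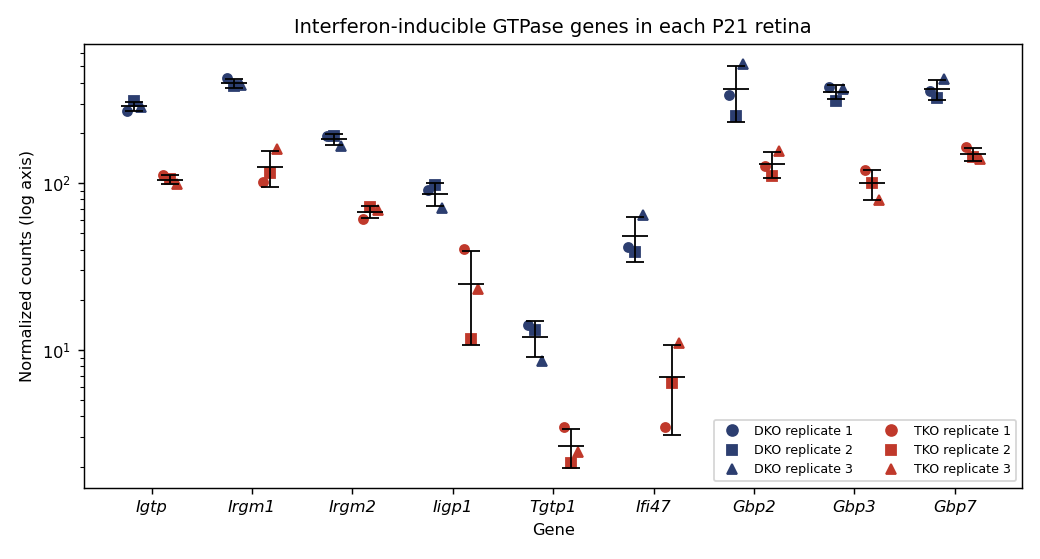
Normalized counts (log axis) of the 9 GTPase genes in each of 3 DKO (blue) and 3 TKO (red) retinae; horizontal marks are means and bars are SD, and marker shapes stand for the replicate number within a group. In each of the 9 genes the 3 TKO points lie below the 3 DKO points.

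The regulatory IRGs are Irgm1, Irgm2 and Igtp (Irgm3), which carry a GMS motif in their GTP-binding site. All 3 lie on chromosome 11 of GRCm38. Irgm1, from 48861968 to 48871683 on the minus strand, had 101, 115 and 160 normalized counts in TKO retinae 1, 2 and 3 and 426, 380 and 386 in DKO retinae 1, 2 and 3. The highest TKO value, in replicate 3, was 2.38-fold below the lowest DKO value. Irgm1 fell by 1.67 on the log2 scale (standard error 0.173, adjusted p = 0.00473, edgeR).

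Igtp, from 58199556 to 58207591 on the plus strand, had 111, 105 and 98.2 normalized counts in TKO retinae 1, 2 and 3 and 272, 309 and 285 in DKO retinae 1, 2 and 3. Its replicates lay close together, with a coefficient of variation of 6.23% in TKO and 6.52% in DKO retinae, and the groups were far apart. Igtp fell by 1.46 (standard error 0.127, adjusted p = 0.00405, edgeR). Irgm2, just downstream of Igtp and on the same strand, had 60.8, 71.6 and 68.7 normalized counts in TKO retinae 1, 2 and 3 and 191, 192 and 168 in DKO retinae 1, 2 and 3. It fell by 1.45 (standard error 0.154, adjusted p = 0.00473, edgeR). The log2 fold changes of these neighbours thus differed by less than 1 standard error. An annotated Irgm2 transcript starts inside Igtp and shares 162 bp of exon with it, out of 2022 bp of Igtp exon, so a part of the reads cannot be assigned to 1 of them.

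The effector IRGs carry a GKS motif. Iigp1 (Irga6), on chromosome 18 from 60376027 to 60392634, encodes an effector that loads onto the vacuole of Toxoplasma gondii. It had 40.1, 11.6 and 23.3 normalized counts in TKO retinae 1, 2 and 3 and 91.3, 97.2 and 70.8 in DKO retinae 1, 2 and 3. The TKO retinae were spread widely, with replicate 1 the highest and replicate 2 the lowest, and still lay below the DKO retinae. Iigp1 fell by 1.79 (standard error 0.386, adjusted p = 0.0187, edgeR). Its adjusted p (edgeR) rose to 0.0526 when TKO replicate 2 was left out, to 0.0665 for DKO replicate 1 and to 0.0773 for DKO replicate 2.

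Tgtp1 (Irgb6), another effector that loads early onto such vacuoles, was the gene with the fewest reads. It lies on chromosome 11 from 48985327 to 48994172, minus strand. It had 3, 2 and 2 counts in TKO retinae 1, 2 and 3 and 15, 15 and 10 in DKO retinae 1, 2 and 3. Against a floor of 3 counts for each TKO library, it was at least 3.25-fold lower in TKO retinae (adjusted p = 0.0226, edgeR). Its adjusted p was 0.0571 with DESeq2, and rose above 0.05 in 4 of the 6 fits that left out 1 library, those without TKO replicate 1 or 2 and without DKO replicate 1 or 2, to at most 0.0908. Reads can be shared between Tgtp1 and its near copy Tgtp2, and 223 bp of Tgtp1 exon overlap the predicted IRG gene Gm12185.

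Ifi47 (Irgd) had the largest fold change of the 9. It lies on chromosome 11 from 49076587 to 49096974. The gene had 3, 6 and 9 counts in TKO retinae 1, 2 and 3 and 44, 44 and 75 in DKO retinae 1, 2 and 3. After scaling, the lowest DKO value was 3.49-fold above the highest TKO value, the widest gap among the 9 genes. Ifi47 fell by 2.79 (standard error 0.428, adjusted p = 0.00766, edgeR). Of its 2473 bp of exon, 111 bp overlap Olfr56 on the same strand and 106 bp the processed pseudogene Gm12188 on the other strand. Among the 8 genes with a promoter window, the gene that fell most was therefore the gene without either motif, which says only that these letters are not in that window.

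The GBPs Gbp2, Gbp3 and Gbp7 lie in a cluster on chromosome 3. GBP2 is bound to membranes by a lipid anchor and assembles on pathogen vacuoles. Gbp2, from 142620602 to 142638008, had 126, 111 and 156 normalized counts in TKO retinae 1, 2 and 3 and 336, 253 and 516 in DKO retinae 1, 2 and 3. The DKO retinae were spread most for this gene, with a coefficient of variation of 36.5% and replicate 3 the highest, and the gap between the groups was the narrowest of the 9, at 1.62-fold. It fell by 1.50 (standard error 0.264, adjusted p = 0.0106, edgeR), and without TKO replicate 2 the adjusted p was 0.0532.

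Gbp3, from 142560026 to 142573209, had 120, 100 and 79.8 normalized counts in TKO retinae 1, 2 and 3 and 375, 313 and 366 in DKO retinae 1, 2 and 3. It fell by 1.81 (standard error 0.169, adjusted p = 0.00419, edgeR). Gbp7, which has been tied to the assembly of the phagocyte oxidase, had 164, 143 and 140 normalized counts in TKO retinae 1, 2 and 3 and 355, 322 and 420 in DKO retinae 1, 2 and 3. It fell by 1.29 (standard error 0.140, adjusted p = 0.00473, edgeR), the smallest change of the 9, and 637 bp of its 5614 bp of exon overlap a processed pseudogene, Gm43802. No single TKO library was the lowest throughout: TKO replicates 1, 2 and 3 were each the lowest TKO library for 3 of the 9 genes.

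To compare levels between genes, counts were divided by the length of the exons and the scaled library size (counts per kilobase per 1e6, RPKM). In DKO retinae the order of levels was Gbp2 (11.6 ± 4.23 RPKM), Igtp (11.3 ± 0.735), Gbp3 (8.50 ± 0.814), Irgm1 (5.41 ± 0.343), Gbp7 (5.15 ± 0.698), Irgm2 (3.93 ± 0.296), Ifi47 (1.54 ± 0.460), Iigp1 (1.17 ± 0.188) and Tgtp1 (0.295 ± 0.0721; SD, n = 3 each). The values of neighbours in this order overlapped between Gbp2 and Igtp, between Irgm1 and Gbp7 and between Ifi47 and Iigp1, and no others overlapped. In TKO retinae Gbp2 (4.11 ± 0.724 RPKM) and Igtp (4.10 ± 0.256) were again the highest and Tgtp1 (0.0658 ± 0.0171) the lowest, while Gbp3, Gbp7, Irgm1 and Irgm2 formed a run of overlapping neighbours from 2.42 to 1.44. The 3 effector IRGs were thus the 3 lowest of the 9 genes in either genotype. With the length of the longest transcript in place of all exons, the DKO level of Irgm1 moved most in absolute terms, to 8.20, and that of Iigp1 moved to 2.19, slightly above Ifi47 at 2.15.

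The rest of both families was examined to see whether the change was shared. Of 8 other GBP genes, 7 were tested, 5 were called lower and 0 higher (4.38% of all genes were called lower and 6.35% in either direction). Called lower were Gbp4 (log2 fold change -1.74), Gbp5 (-1.14), Gbp6 (-1.59), Gbp9 (-1.64) and Gbp10 (-2.40). Gbp6 had 141, 108 and 125 normalized counts in TKO retinae 1, 2 and 3 and 428, 330 and 368 in DKO retinae 1, 2 and 3. The calls of Gbp4, Gbp6 and Gbp9 held with any 1 library left out, that of Gbp10 was lost without DKO replicate 2, and that of Gbp5 without TKO replicate 1 or 2 or without DKO replicate 1 or 3 (adjusted p of at most 0.102, edgeR). Gbp8 passed the adjusted p (0.0492, edgeR) but its mean count was too low for a call, and it did not pass in any fit that left out 1 library. The median of the 7 genes was -1.64. Reads on Gbp4, Gbp8 and Gbp9 are partly shared, since their exons overlap by 60 or 61 bp, and Gbp6 and Gbp10 share 1726 and 1792 bp of exon with Gm43302.

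Gbp2b, which encodes GBP1 and sits between Gbp3 and Gbp2, did not follow the pattern. It had 57.3, 1.05 and 0 normalized counts in TKO retinae 1, 2 and 3 and 1.88, 84.0 and 155 in DKO retinae 1, 2 and 3. TKO retina 1 lay above DKO retina 1, so the groups overlapped (log2 fold change -2.05, standard error 1.36, adjusted p = 0.328, edgeR). Its neighbours Gbp3 and Gbp2 showed no such spread in the same libraries.

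Of 10 other IRG genes, 7 were tested and 2 were called lower. Gm4951, near Iigp1 on chromosome 18, had 3.44, 2.10 and 1.23 normalized counts in TKO retinae 1, 2 and 3 and 40.5, 30.6 and 25.0 in DKO retinae 1, 2 and 3, and was at least 8.71-fold lower (adjusted p = 0.00571, edgeR), the widest bound in these families. Tgtp2 fell by 1.96 (standard error 0.470, adjusted p = 0.0264, edgeR), close to its copy Tgtp1, and lost its call without TKO replicate 1 or 2 or without DKO replicate 1 or 2 (adjusted p of at most 0.0980, edgeR). Gm4841 and Gm5431 had log2 fold changes of -2.09 and -2.55 at adjusted p of 0.0532 and 0.0673 (edgeR), with at most 3 counts in each TKO library. 9930111J21Rik1 (-0.45) and F830016B08Rik (-0.63) did not pass, and neither did Irgq, an IRG-like gene without known induction by interferon, at 0.00 (standard error 0.0847). The median of the 7 was -1.96 from the fit and -0.47 with the 4 genes at the floor set to their bound. Gm12250, which RefSeq also lists as Irgb10 and which lies 5′ of Igtp, was no member of the fixed list and was named as a called neighbour. It fell by 1.47 (standard error 0.396, adjusted p = 0.0389, edgeR).

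Mx1 and Mx2, large GTPases that are induced by type I and type III interferon, were both called lower, with log2 fold changes of -2.50 (standard error 0.706) and -1.55 (standard error 0.340). Both calls were lost without TKO replicate 2 or without DKO replicate 1 or 2, that of Mx1 also without TKO replicate 1 (adjusted p of at most 0.144, edgeR). Of the very large inducible GTPase genes on the list, Gvin1, Gm4070 and Gm17757 had 0 counts in each library, and Gm8995 was not analysed here. In contrast, of 14 dynamin superfamily genes that interferon does not induce (dynamins, mitofusins, atlastins, Opa1 and Ehd1 to Ehd4), 0 passed an adjusted p of 0.05 in edgeR. Their log2 fold changes ran from -0.41 to 0.50, with a median of 0.07. At an unadjusted p under 0.05 there were 3, and with DESeq2 there were 2 at an adjusted p of 0.05, Dnm1 (0.0183) and Ehd4 (0.0354), both higher in TKO retinae.

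**Figure D3:**
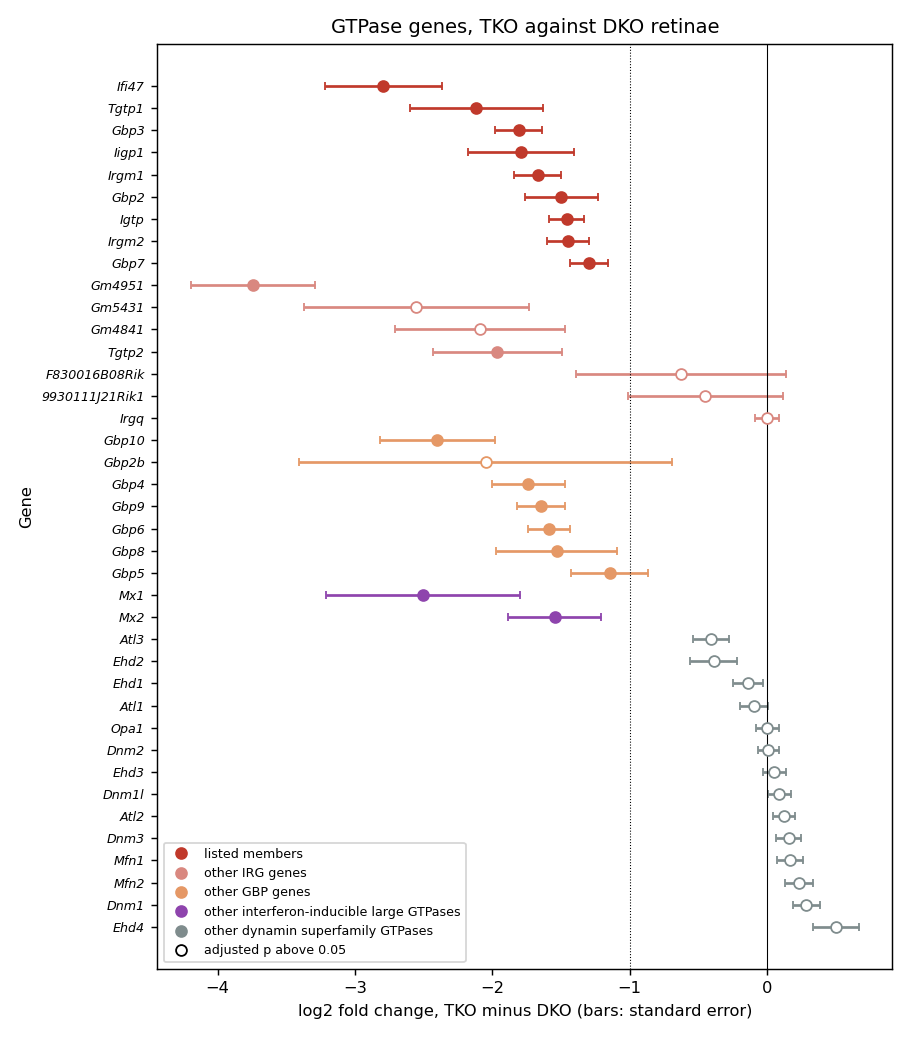
Log2 fold change (TKO minus DKO, bars are standard errors) of each tested GTPase gene, grouped by list; open circles have an adjusted p above 0.05 in edgeR's quasi-likelihood test and the dotted line marks -1. The 9 listed genes lie between -2.79 and -1.29, whereas the 14 other dynamin superfamily genes lie between -0.41 and 0.50; values for genes with at most 3 counts per TKO library depend on the fit and are given as bounds in the text.

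Whether whole chromosome regions or only the GTPase genes were lower was examined with the genes that lie within 200 kb of a listed gene. Of 23 such genes tested outside the lists, 2 were called lower, against 4.38% of all genes tested. The median log2 fold change of the 23 was 0.04. The 2 were Gm12250, which is itself an IRG gene, and the microRNA gene Mir6381 (-1.49), which lies inside Gbp2 on the opposite strand, where reads cannot be assigned with certainty. On chromosome 11, Trim7 (-0.09) beside Irgm1 and Trim41 (0.09) beyond Trim7 did not pass. Zfp62 (0.17) beside Ifi47 and Zfp692 (0.13) beside Irgm2 did not pass, and Mgat1 passed in the higher direction (0.57). On chromosome 3, Gtf2b (-0.06) beside Gbp2 and Pdlim5 (-0.03) beside Gbp5 did not pass either. Gm12250 and Mir6381 each kept an adjusted p of at most 0.05 in 1 of the 6 fits that left out 1 library (up to 0.122 and 0.127, edgeR).

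**Figure D4:**
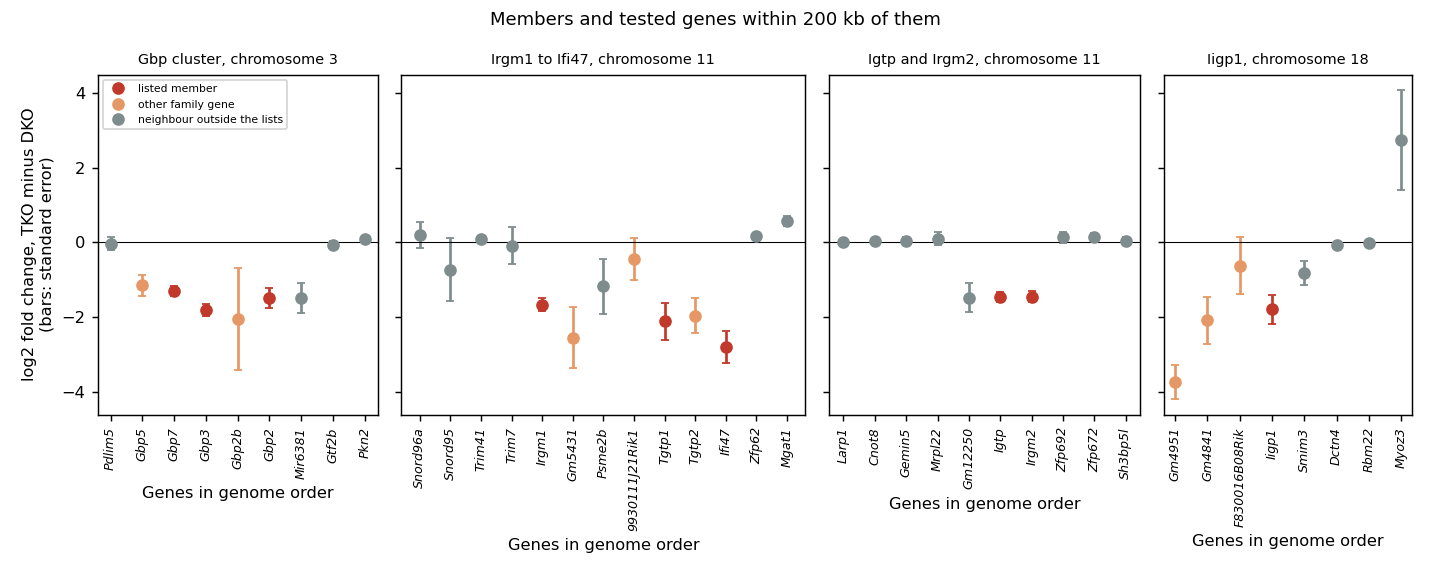
Log2 fold change (TKO minus DKO, bars are standard errors) of the 9 listed GTPase genes (red), other genes of the families (orange) and tested neighbours within 200 kb (grey), in genome order at 4 loci. Listed genes lie at or below -1.29, while most grey neighbours lie near 0. Exceptions are Gm12250 and Mir6381, which were called lower, and Mgat1 (0.57), which passed in the higher direction. The sparsely counted Myoz3, Psme2b, Smim3 and Snord95 also lie away from 0 and did not pass.

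The pathway that induces these genes was then followed from ligand to target. Interferon transcripts were at the limit of detection: none of the 10 genes listed could be tested, and 8 of them had 0 counts in all 6 libraries. The other 2 had at most 1 count in a library. Of 7 receptor and kinase genes, 0 were called with edgeR (2 had an unadjusted p under 0.05 and 1 passed with DESeq2) and 1 passed in the lower direction. This was Ifnar2, a subunit of the type I interferon receptor (-0.72, adjusted p = 0.0355, edgeR), and it passed in only 1 of the 6 fits that left out 1 library, that without TKO replicate 3. The interferon-gamma receptor genes Ifngr1 (0.22) and Ifngr2 (-0.19) and the kinase genes Jak1 (0.09) and Jak2 (0.11) did not pass.

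Of 12 transcription factor and coactivator genes, 4 were called lower and 2 more passed in the lower direction. Irf1, which binds the ISRE and is itself induced by interferon-gamma, stood at 323 ± 69.6 normalized counts in the DKO and 153 ± 41.7 in the TKO group (SD, n = 3) and fell by 1.08 (standard error 0.230, adjusted p = 0.0181, edgeR). It lost its call without TKO replicate 2 (0.0648) or without DKO replicate 1 (0.0582). Irf7 fell by 1.26, Irf8, a factor of microglia and other myeloid cells, by 1.06, and Nlrc5, the coactivator of MHC class I genes, by 1.70. The call of Irf8 held only without TKO replicate 3 among the 6 fits that left out 1 library (adjusted p of at most 0.122 in the others, edgeR). Irf9 passed at -0.77, and Batf2 was at least 2.12-fold lower (adjusted p = 0.0260, edgeR), but 0.0618 with DESeq2 and up to 0.0885 with either of TKO replicates 1 and 2 or DKO replicates 1 and 2 left out. Stat2 (-0.08) and Stat3 (0.01) did not pass. Irf3, which is not induced by interferon, passed in the higher direction (0.42, adjusted p = 0.0305, edgeR), as did 7.35% of all genes. It did not pass with total count scaling (0.105) or when either of TKO replicates 1 and 2 or DKO replicates 1 and 2 was left out (up to 0.101).

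Of 6 inhibitors of interferon signalling, Usp18, which blocks the type I receptor and is itself induced by interferon, was called lower (-1.95), and Ptpn2 (0.50) and Pias1 (0.40) passed in the higher direction, Pias1 not without TKO replicate 1 or 2 or DKO replicate 1 or 2 (adjusted p up to 0.0765, edgeR) nor with total count scaling (0.0668). Socs1 (-1.45) and Socs3 (-1.54) did not pass. Of 17 tested genes that bring GBPs and IRGs to vacuoles or conjugate ATG8 proteins, 1 was called lower, Trim21 (-1.10), a ubiquitin ligase that interferon induces. Atg16l1 (0.73), Tax1bp1 (0.63) and Calcoco1 (0.50) passed in the higher direction, each not without DKO replicate 1 or 2, and the latter 2 also not without TKO replicate 1 or 2 (adjusted p up to 0.0790, edgeR), and the core conjugation genes Atg3 (0.17), Atg5 (0.04) and Atg7 (0.08) did not pass. Of 9 inflammasome genes that act after GBPs, Pycard, which encodes the adaptor ASC, was called lower (-1.52), though not without TKO replicate 2 or without DKO replicate 1 or 2 (adjusted p of at most 0.0700, edgeR), and the list median was -1.19, or -1.11 with Nlrc4 at its bound.

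Among 12 tested interferon-gamma target genes outside the GTPase families, 7 were called lower and the median was -1.40, or -1.38 with Cxcl9 at its bound. The chemokine gene Cxcl10 had 12.6, 5.26 and 20.9 normalized counts in TKO retinae 1, 2 and 3 and 112, 58.7 and 218 in DKO retinae 1, 2 and 3, the largest change of the list (-3.34). The peptide transporter gene Tap1 (-1.56) and the immunoproteasome genes Psmb8 (-1.48) and Psmb9 (111 normalized counts on average in DKO and 27.9 in TKO retinae) were called with log2 fold changes inside the range of the 9 GTPase genes, as were Parp14 (-1.37), Xaf1 (-1.40) and Serping1 (-1.39). Serping1 lost its call without TKO replicate 2 or without DKO replicate 1 or 2 (adjusted p of at most 0.0876, edgeR), and Cxcl10 without TKO replicate 2, where its adjusted p was just above the threshold. The tRNA synthetase gene Wars (0.01) and Nos2 (0.05), both targets of interferon-gamma in other cells, did not pass.

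The profile of the 9 genes over the 6 libraries, as the mean of their centred log2 normalized counts, was compared with 12758 genes outside the lists whose mean normalized count was at least 50. The nearest by root mean square difference were Oasl2 (0.126 log2 units), Glipr2 (0.152), Alpk1 (0.159), B2m (0.164) and Trim30d (0.175). Of the 9 genes themselves, Irgm1 (0.184) and Igtp (0.193) lay nearest to their common mean and Ifi47 (0.672) and Iigp1 (0.475) farthest. The likeness is over 6 libraries in 2 groups, so it follows mainly the step between the genotypes.

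Markers of cell types that could carry the GTPase transcripts were read in the same libraries. Of 15 microglia and macrophage markers, 10 were called lower, with a median log2 fold change of -1.09. Among them were the complement genes C1qa (-1.29) and C1qc (-1.28), Csf1r (-1.03), Fcrls (-1.73) and Ptprc (-1.51). The sum over the 15 markers was 2126 to 3895 normalized counts in TKO and 4693 to 7013 in DKO retinae, a ratio of 2.01. Fcrls and Ptprc kept an adjusted p of at most 0.05 with any 1 library left out. With TKO replicate 1, 2 or 3 left out, 5, 2 and 12 of the markers were called, and with DKO replicate 1, 2 or 3 left out, 3, 2 and 11. Among the markers of resting microglia, Cx3cr1 was called lower (-1.09), while P2ry12 (0.04) and Tmem119 (-0.35) did not pass. For each 100 counts on the 15 markers, the 9 GTPase genes had 34.4, 24.3 and 19.0 counts in TKO retinae 1, 2 and 3 and 35.6, 27.3 and 48.7 in DKO retinae 1, 2 and 3, so this quotient overlapped between the groups. Within the TKO group, replicates 1 and 3 had nearly the same GTPase sum (730 and 739), while their microglia sums were 2126 and 3895.

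Of the 7 gliosis markers, 2 were called lower, Lcn2 (-4.86) and A2m (-1.14), the latter not without TKO replicate 1 or 2 or DKO replicate 1 or 3 (adjusted p up to 0.134, edgeR). Gfap, the most abundant of them, had a log2 fold change of -1.46 with groups that did not overlap and an adjusted p of 0.0566 (edgeR). The sum over the 7 markers was 4472 to 7739 in TKO and 7663 to 24015 in DKO retinae, the highest in DKO replicate 3. DKO replicates 1, 2 and 3 were each the highest DKO library for 3 of the 9 GTPase genes, replicate 3 for Gbp2, Gbp7 and Ifi47. Of 8 Muller glia markers 1 was called, Glul, in the higher direction, and their median was 0.11. By adjusted p alone, 3 of the 8 passed in the higher and 1 in the lower direction (edgeR). The endothelial list had 0 of 10 genes called and a median of 0.48, with sums of 5650 to 7067 in TKO and 5687 to 7327 in DKO retinae. Of 14 T and NK cell markers, 5 could be tested and 1 was called lower, Cd4, though not without TKO replicate 1 or 2 or DKO replicate 1 or 2 (adjusted p up to 0.140, edgeR), and 0 of 5 tested monocyte and neutrophil markers were called with edgeR. At an unadjusted p under 0.05 there were 2 endothelial and 2 monocyte and neutrophil markers, and 1 of each list passed with DESeq2. With edgeR, 1 endothelial marker passed in the higher direction and 0 monocyte and neutrophil markers passed. All 8 dividing cell markers were called lower, with sums of 641 to 2557 in TKO and 5950 to 11948 in DKO retinae, and all 8 rod markers were called higher, with sums of 337189 to 684671 in TKO and 114917 to 219182 in DKO retinae. Without TKO replicate 2, DKO replicate 1 or DKO replicate 2, 4, 5 and 5 dividing cell markers and 5, 4 and 3 rod markers were called. Of 7 lens markers, 3 were called higher, Cryaa, Crybb2 and Cryba1, of which Cryaa alone passed without DKO replicate 1 or 2, and the list sum was highest in TKO replicate 2 (3010 against 472 to 561 in the other TKO retinae and 104 to 105 in DKO retinae). Of 7 bipolar markers and 6 RPE markers, 0 and 1 were called (Rpe65, higher, and not without TKO replicate 1 or 2 or DKO replicate 1 or 2), with medians of 0.14 and 0.07. Among the bipolar markers, 2 had an unadjusted p under 0.05, 1 passed with DESeq2 and 1 passed in the higher direction with edgeR. The part of these lists in the lower GTPase values was not tested, and in whole retinae fewer cells of a type and less RNA per cell cannot be told apart.

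**Figure D5:**
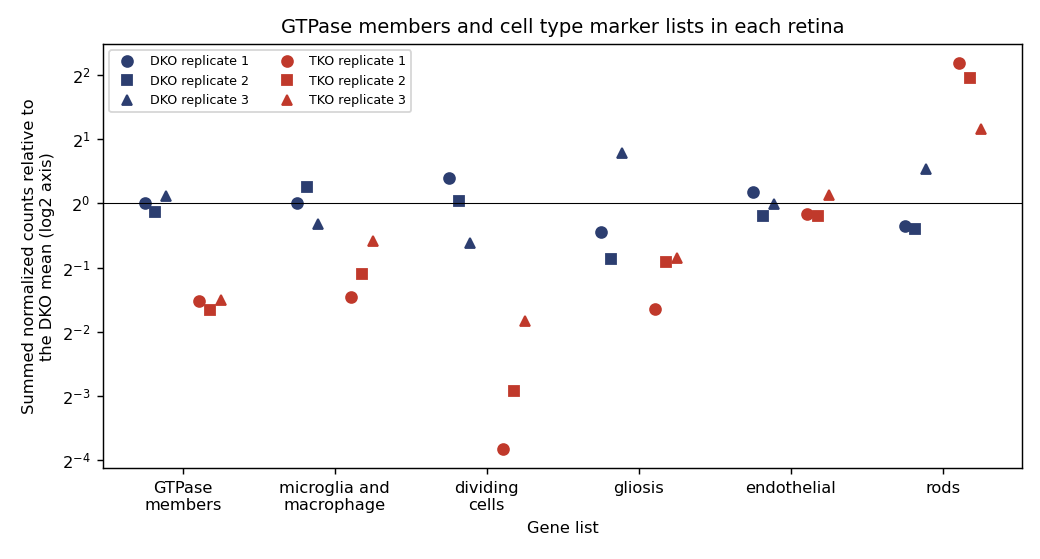
Summed normalized counts of the 9 GTPase genes and of 5 marker lists in each retina, divided by the DKO mean of the list (log2 axis), with DKO in blue and TKO in red and marker shapes for the replicate number. The GTPase sums of the 3 TKO retinae lie close together at 665 to 739 normalized counts, whereas their microglia, dividing cell and rod sums are spread more widely.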

How the data were processed

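RNA was measured in whole retinae by stranded mRNA sequencing. The deposited values are raw counts per gene, without normalization, in 1 column for each library, and 0 columns of other samples were left out. The paper's methods name STAR and HTSeq, whereas the submitters' processing notes name TopHat2, featureCounts and DESeq2 with builds mm10 and GRCm38, so the authors' counting tool is uncertain. The strand setting of the counting is not given in the sources used here, and overlapping genes are less certain for that reason.

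Genes with a sum under 10 were removed, and counts were compared with edgeR 4.0.16 in R 4.3.3 (TMM scaling, quasi-likelihood F test, Benjamini-Hochberg adjustment over 16904 genes) without covariates. Standard errors were derived from the F statistic and the fold change. The mean count used for a call was scaled with DESeq2 1.42.0 size factors, and DESeq2 was an alternative test. Folds of genes with at most 3 counts in every library of a group are bounds against 3 counts for each library, which cover counting error only. Counts of replicate libraries differed beyond sampling noise, with 8.61 to 25.3 for chi-square over its degrees of freedom. The test was run on simulated data first. Coordinates and exon lengths come from a GENCODE annotation of GRCm38, which held 22750 of the 24062 symbols (94.5%), and promoter sequences from RefSeq (GRCm38.p6).

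The 9 genes and all gene lists, which were written by hand, were chosen with earlier results of these data known, so no list was tested. Besides the 9 genes, the text names the tested genes of both families, the called genes of other lists (the 5 with the smallest p where more were called) and the most abundant ones, called neighbours within 200 kb and the 5 genes of most similar profile. Other genes were named after their values were seen. Alternatives were DESeq2, other scalings, filters, dispersions and thresholds, the replicate number as a block, and each library left out in turn, for marker lists chosen after seeing the data. One gene that this rule names is not reported here.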

Additional observations from a re-analysis of the deposited data

How the results depend on the processing

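The number of the 9 GTPase genes called lower was 8 with DESeq2, with 3 other scalings, 2 other filters, robust dispersions and no minimum fold change, 6 at an adjusted p of at most 0.01 and 6 to 8 with 1 library left out, and the groups of all 9 genes stayed separate under each scaling. Over 125 alternative values of the 9 genes, 0 reversed, 12 lost an adjusted p of 0.05, and log2 fold changes ran from -3.26 to -1.17. Other family genes called were 9, 4 at an adjusted p of at most 0.01, and 5 to 9 with 1 library left out (5 without TKO replicate 2, DKO replicate 1 or DKO replicate 2). Pathway genes called were 14, 22 with no minimum fold change, 9 at an adjusted p of at most 0.01, and 9 to 16 with 1 library left out (9 without TKO replicate 2). Over all genes, 333 were called higher and 741 lower, 1225 and 1496 with no minimum fold change, 129 and 292 at an adjusted p of at most 0.01, and, with 1 library left out, 121 to 476 higher and 312 to 1024 lower. The median over all genes, on the log2 scale, was -0.011 and became -0.17 with total count scaling. The cause of these shifts was not tested. Depth limits Tgtp1, Gm4951 and the interferon genes, which had few or no counts.

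The labels do not say whether samples with the same replicate number belong together. Their deviations from the group means correlated at 0.068, -0.045 and -0.18 for replicates 1, 2 and 3. With 3 samples in each group, these values cannot show whether samples shared a litter or a batch. With the replicate block, 6 of the 9 GTPase genes, 3 other family genes and 6 pathway genes were called, and 15 genes higher and 75 lower over all genes. Ifi47 (adjusted p = 0.0509, edgeR) and Iigp1 (0.0642) lost their calls with the block. The block leaves fewer degrees of freedom.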
